A study of Mus musculus with 28 samples.

Results

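In P19 cells treated with MS-275, H3K9ac, H3K9cr and H3K18la occurred together in few places against the very long lists of H3K9ac and H3K9cr peaks. These places took in most H3K18la peaks. They were also wide, in part because joining peaks of 3 lists widens a region. P19 is an established mouse embryonal carcinoma line, a pluripotent tumour line that turns neural in retinoic acid. Peaks of the 3 marks with MS-275 were joined wherever they overlapped by at least 1 bp, and 16185 of the 91645 joined regions held all 3 marks. Of 38273 genes with known ends, 5865 had a peak of each mark within 1 kb of either end. The same rule gave 18167 regions and 12397 genes with the solvent DMSO, and 12012 genes when the DMSO H3K18la list was shortened to the length of the MS-275 list.

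The MS-275 cells had been in 1 µM retinoic acid for 2 days, in MEM α with 10% serum, and 1 µL of a 10 mM MS-275 stock had been added after the first 24 hours. The DMSO cells had the same retinoic acid, and 1 µL of DMSO was added at the same time. The sources used here name no culture volume, so the final concentration of the drug is not stated. Each mark was profiled by native chromatin immunoprecipitation (ChIP) in 1 library per condition at day 2, and RNA in 2 libraries per condition. The whole series holds 28 samples, and its design text describes the replicates as biological. Untreated day 4 progenitors, after longer retinoic acid, had 2 ChIP libraries per mark and are used here only to show how far a repeated list moves.

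H3K9ac is acetylated lysine 9 of histone H3, H3K9cr is the same lysine carrying a crotonyl group, and H3K18la is lysine 18 carrying a lactyl group. Acetyl groups are placed by acetyltransferases such as p300 and CBP, read by bromodomain proteins and removed by histone deacetylases, while crotonyl groups are read best by YEATS domains. The class I deacetylases HDAC1, HDAC2 and HDAC3 can also remove crotonyl and lactyl groups, and MS-275 (entinostat) is a benzamide that inhibits these class I enzymes. All 3 marks are known from the starts of active genes.

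The promoters shown next bracket what carried all 3 marks with MS-275. Each is the stretch from 250 bases before to 50 bases after a gene start, from RefSeq on GRCm38.p6, written 5′ to 3′ on the gene's strand with CG dinucleotides in capitals. Eef2 (chr10:81176381-81176680, plus strand) is the promoter of the gene with the highest CPM among these, with all 3 marks under both treatments. Padi2 (chr4:140906110-140906409, plus strand) and Hoxa9 (chr6:52227321-52227620, minus strand) had all 3 marks at their ends with MS-275 and none with DMSO. Pla2g1b (chr5:115465892-115466191, plus strand) rose and Igfbp5 (chr1:72874816-72875115, minus strand) fell, both with all 3 marks under both treatments. Hnrnpf (chr6:117900090-117900389, plus strand) is an expressed gene whose listed start here had none of the marks.
Eef2: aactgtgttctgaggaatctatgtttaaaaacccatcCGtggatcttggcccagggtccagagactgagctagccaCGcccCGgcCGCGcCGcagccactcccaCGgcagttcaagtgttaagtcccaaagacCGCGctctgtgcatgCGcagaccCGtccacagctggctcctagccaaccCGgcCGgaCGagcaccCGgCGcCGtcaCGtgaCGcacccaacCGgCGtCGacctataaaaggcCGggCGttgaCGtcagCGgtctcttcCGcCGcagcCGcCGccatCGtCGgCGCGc
Padi2: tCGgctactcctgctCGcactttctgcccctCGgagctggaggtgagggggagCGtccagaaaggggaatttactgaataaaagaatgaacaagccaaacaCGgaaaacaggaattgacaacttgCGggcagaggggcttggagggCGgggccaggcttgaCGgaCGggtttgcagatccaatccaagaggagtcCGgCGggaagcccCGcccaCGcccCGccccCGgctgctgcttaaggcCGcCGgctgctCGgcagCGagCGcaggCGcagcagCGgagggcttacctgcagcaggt
Hoxa9: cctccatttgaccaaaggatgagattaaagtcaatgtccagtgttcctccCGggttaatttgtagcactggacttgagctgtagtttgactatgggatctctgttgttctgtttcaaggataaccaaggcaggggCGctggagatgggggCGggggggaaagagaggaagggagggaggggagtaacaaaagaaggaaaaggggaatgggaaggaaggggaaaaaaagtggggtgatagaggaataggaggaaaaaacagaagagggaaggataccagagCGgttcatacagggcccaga
Pla2g1b: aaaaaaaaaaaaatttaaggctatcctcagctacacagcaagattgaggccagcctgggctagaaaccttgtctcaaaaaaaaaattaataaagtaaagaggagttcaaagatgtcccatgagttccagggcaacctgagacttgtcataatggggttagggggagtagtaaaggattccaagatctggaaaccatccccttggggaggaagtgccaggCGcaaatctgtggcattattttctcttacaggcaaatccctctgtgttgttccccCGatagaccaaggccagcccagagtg
Igfbp5: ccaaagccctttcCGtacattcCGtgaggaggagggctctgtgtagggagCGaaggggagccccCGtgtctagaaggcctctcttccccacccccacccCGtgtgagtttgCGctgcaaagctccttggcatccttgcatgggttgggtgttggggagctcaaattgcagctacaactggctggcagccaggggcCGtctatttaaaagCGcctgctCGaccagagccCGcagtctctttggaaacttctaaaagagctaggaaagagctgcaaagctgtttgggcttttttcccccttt
Hnrnpf: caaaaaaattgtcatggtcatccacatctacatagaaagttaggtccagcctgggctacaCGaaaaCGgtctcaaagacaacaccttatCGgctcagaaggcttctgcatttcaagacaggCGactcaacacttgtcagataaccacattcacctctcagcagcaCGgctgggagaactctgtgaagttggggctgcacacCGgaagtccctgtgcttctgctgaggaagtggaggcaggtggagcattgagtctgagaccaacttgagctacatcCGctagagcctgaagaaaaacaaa
These sequences hold 34 CG dinucleotides in Eef2, 22 in Padi2, 4 in Hoxa9, 2 in Pla2g1b, 10 in Igfbp5 and 7 in Hnrnpf. Promoters rich and poor in CG thus both stood among those with all 3 marks.

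H3K9ac and H3K9cr peaks with MS-275 mostly lay apart from H3K18la. There were 84418 H3K9ac, 70748 H3K9cr and 31577 H3K18la peaks with MS-275, against 26555, 24874 and 36382 with DMSO in the same order. With MS-275, 19.9% of H3K9ac peaks overlapped peaks of both other marks, against 69.6% with DMSO. For H3K9cr the share was 24.0% with MS-275 and 75% with DMSO. For H3K18la it went the other way, with 77.7% of peaks overlapping both other marks with MS-275 and 60.5% with DMSO. The lists of the 2 day 4 libraries differed by far less between themselves, at 55.5% and 58.6% for H3K9ac, 78.0% and 79.8% for H3K9cr, and 46.2% and 49.3% for H3K18la. With 1 ChIP library per mark and condition, none of these shares could be tested between MS-275 and DMSO.

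H3K9ac and H3K9cr stayed near each other with the drug. With MS-275, 88.0% of H3K9cr peaks overlapped an H3K9ac peak, against 92.5% with DMSO, and 70.6% of the longer H3K9ac list overlapped H3K9cr, against 86.0% with DMSO. H3K18la reached 21.3% of H3K9ac peaks with MS-275, against 76.7% with DMSO. Overlap shares depend on list length: with all lists shortened to their strongest 31577 peaks, the H3K9ac share with both other marks was 38.6% with MS-275 and the H3K18la share 62.2%.

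Joined into regions, the marks fell mainly into 2 classes with MS-275. All 3 marks were held by 16185 regions (17.7%), and H3K9ac with H3K9cr but no H3K18la by 37693 (41.1%). With DMSO these classes held 18167 (46.6%) and 4054 (10.4%) of 38998 regions. H3K9ac alone made up 23681 regions with MS-275 and 1835 with DMSO, H3K9cr alone 8098 and 1038, and H3K18la alone 4625 and 11517. H3K18la with only one of the other marks was rare with MS-275, at 1037 regions with H3K9ac and 326 with H3K9cr.

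The regions with all 3 marks were the wide ones, in part by construction, since each joins peaks of 3 lists. A wide peak also meets others more easily under a rule of 1 bp, and how much of the width goes with this was not tested. Their median width was 2902 bp with MS-275 (quartiles 1734 and 4643) and 1661 bp with DMSO (1138 and 2272), whereas regions with H3K9ac and H3K9cr alone had a median of 1276 bp with MS-275. They covered 60.4 Mb with MS-275, 43.6% of all the marked length, and 33.3 Mb with DMSO. The H3K18la part of them was narrow: the median H3K18la peak in such a region was 418 bp with MS-275, inside H3K9ac peaks of 2194 bp and H3K9cr peaks of 1864 bp. In 31.0% of these regions with MS-275, more than 1 H3K18la peak lay under the wider marks, against 20.9% with DMSO.

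**Figure D1:**
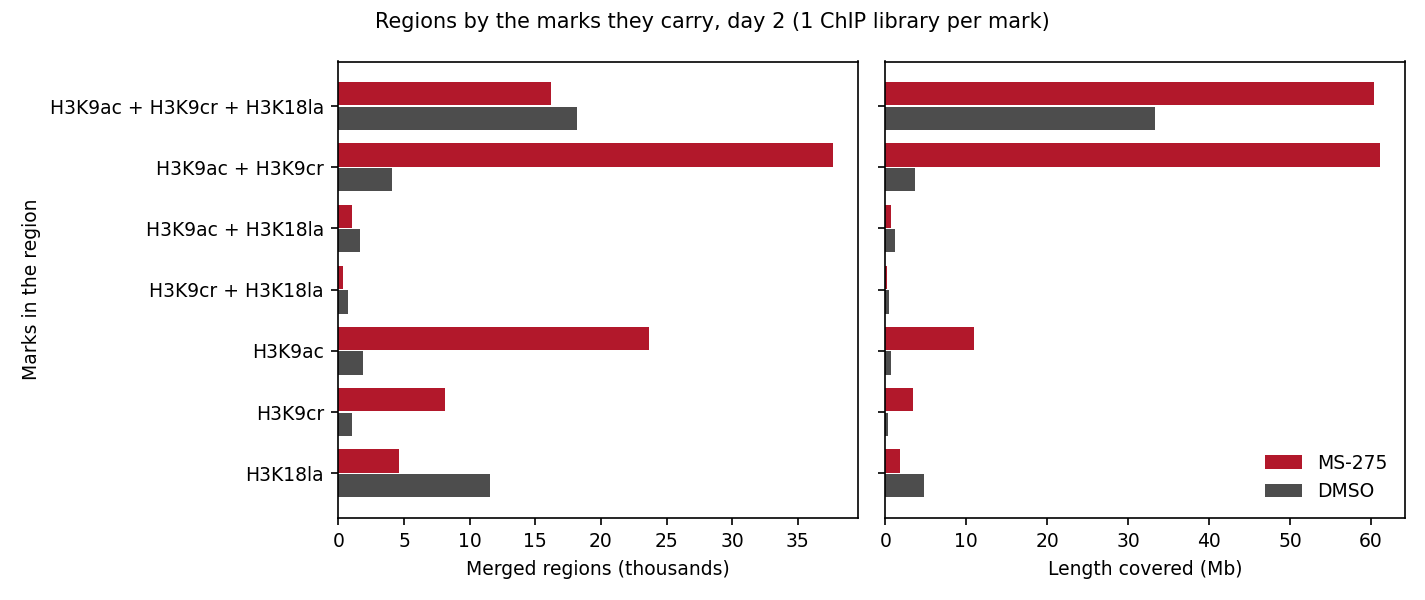
Joined regions by the marks they held at day 2, with MS-275 (red, upper bars) and DMSO (grey, lower bars); the left panel counts regions and the right panel gives the length covered in Mb. Regions with all 3 marks numbered 16185 with MS-275 and 18167 with DMSO, but covered 60.4 Mb and 33.3 Mb.

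The share of H3K9ac peaks that met H3K18la grew with the width of the H3K9ac peak. Among H3K9ac peaks under 500 bp, 5.01% overlapped H3K18la with MS-275 and 52.2% with DMSO. From 1000 to 2000 bp it was 23.7% with MS-275 and 87.8% with DMSO, and from 2000 to 5000 bp 47.2% and 97.9%. Of the 3204 H3K9ac peaks of 5000 bp or more with MS-275, 86.5% overlapped H3K18la, as did each of the 201 such peaks with DMSO. In every width class drawn the MS-275 share was the lower one. A wider peak has more room to meet an H3K18la peak by 1 bp, and how much of the growth with width goes with this was not tested.

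**Figure D2:**
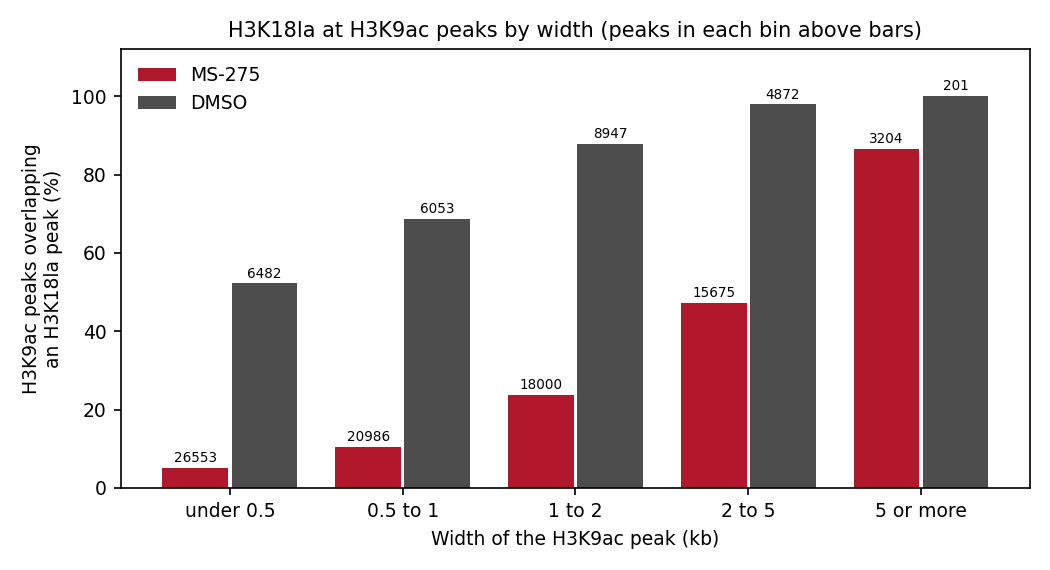
Percent of H3K9ac peaks that overlapped an H3K18la peak by at least 1 bp, by width of the H3K9ac peak in kb, with MS-275 (red, left bars) and DMSO (grey, right bars); numbers above bars count the H3K9ac peaks. With MS-275 the share climbed with width, 5.01% in the narrowest class and 86.5% in the widest.

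Where the marks met, H3K9ac and H3K9cr peaks were mostly in the stronger part of their lists, at median percentiles of 76.1 and 70.0 with MS-275. The fold enrichment of a peak over its local background, a value of the authors' caller, had a median of 7.96 for H3K9ac in regions with all 3 marks with MS-275, 5.26 where only H3K9cr was present too, and 3.51 where H3K9ac was alone. H3K9cr followed with 7.25, 4.82 and 3.53. H3K18la peaks with MS-275 hardly differed, with a median of 4.14 with both other marks and 3.90 alone. With DMSO the medians in regions with all 3 marks were 24.1 for H3K9ac, 25.7 for H3K9cr and 6.22 for H3K18la. H3K18la alone had 4.06 with DMSO. Over the whole H3K18la list the median was 4.07 with MS-275 and 5.14 with DMSO, and the maximum 12.7 and 54.9. An H3K18la peak not called with MS-275 thus does not show that the mark was absent. Ranks of strength ran together for H3K9ac and H3K9cr across the 16185 regions (Spearman rho 0.906) and loosely for H3K9ac and H3K18la (0.277) or H3K9cr and H3K18la (0.281). These are descriptions across regions of the same 3 libraries, and width and depth of the lists are shared by all points.

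The strongest points of the marks lay farther apart with the drug. Within a region with all 3 marks, the summits of the strongest H3K9ac and H3K9cr peaks were a median of 173 bp apart with MS-275 and 43 bp with DMSO. H3K9ac and H3K18la summits were 454 bp apart with MS-275 and 125 bp with DMSO, and H3K9cr and H3K18la summits 452 bp and 123 bp. Summits of H3K9ac and H3K18la lay within 200 bp of each other in 34.5% of regions with MS-275 and 62.7% with DMSO. The regions were also wider with MS-275, as given above, and how much of the distance goes with width was not tested.

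A smaller share of each list sat at gene starts with MS-275. Summits within 1 kb of the nearest annotated start made up 18% of H3K9ac, 20.9% of H3K9cr and 15.8% of H3K18la peaks with MS-275, against 45.5%, 48.0% and 34.3% with DMSO. Within 250 bp the shares were 3.63%, 3.18% and 3.89% with MS-275, and 16.9%, 17.8% and 13.0% with DMSO. The bin of 200 bp with the most H3K9ac summits, centred 300 bp inside the gene, held 4.5% of the list with MS-275 and 15% with DMSO. In counts, 14753 H3K9ac summits lay within 1 kb of a start with MS-275 and 11714 with DMSO, while for H3K18la there were 4768 with MS-275 and 12040 with DMSO.

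**Figure D3:**
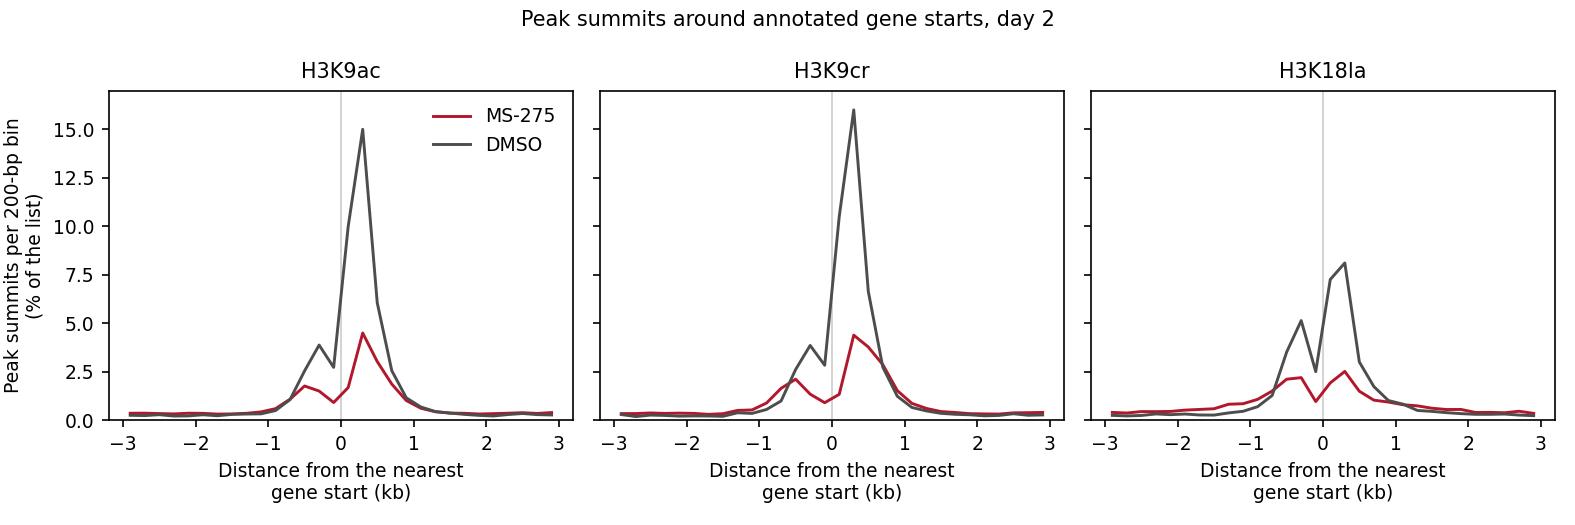
Peak summits around annotated gene starts in bins of 200 bp, as percent of each list, for H3K9ac, H3K9cr and H3K18la (left to right), with MS-275 (red) and DMSO (grey); positive distances lie inside the gene. In each panel the crest just inside the gene was lower with MS-275, for H3K9ac 4.5% against 15% with DMSO.

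Of the 16185 regions with all 3 marks with MS-275, 37.7% lay within 1 kb of a gene end, 29.4% inside a gene only and 32.9% outside genes. With DMSO the shares were 60.5%, 23.8% and 15.7%. Regions with H3K18la alone kept even farther from gene ends, with 4.00% near one with MS-275 and 7.84% with DMSO.

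The regions with all 3 marks had different histories. Of the 16185, 50.1% overlapped peaks of all 3 marks with DMSO, 29.7% overlapped none, and 10.3% overlapped H3K18la alone. The first kind was wide, with a median of 3957 bp and 60.0% near a gene end, and the 4814 with no DMSO peak had a median of 1708 bp and 11% near a gene end. Seen from the other side, 42.2% of the 18167 DMSO regions overlapped all 3 marks with MS-275, and 55% overlapped H3K9ac and H3K9cr but no H3K18la. H3K9ac and H3K9cr were found again almost everywhere, since 96.4% of DMSO H3K9ac peaks and 95.4% of DMSO H3K9cr peaks overlapped a peak of the same mark with MS-275. For H3K18la this share was 30.7%, where the 2 day 4 libraries shared 87.1%, 91.0% and 71.9% for H3K9ac, H3K9cr and H3K18la.

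Several of the widest regions with all 3 marks lay over homeobox genes. The widest, chr11:96289367-96359218 in the HoxB cluster, was 69.9 kb long and held 1 H3K9ac peak, 1 H3K9cr peak and 34 H3K18la peaks with MS-275, against 6, 8 and 19 peaks in the same interval with DMSO. H3K9ac covered 99.9% of it with MS-275 and 84.9% with DMSO, and H3K18la 70.9% and 68.5%. The next in the HoxA cluster, chr6:52146069-52191283, was 45.2 kb long with 22 H3K18la peaks, which covered 56.0% of it with MS-275 and 66.0% with DMSO. The next in width took in Trim71, an RNA-binding regulator of early development (43.6 kb), more of the HoxA cluster (39.1 kb), Hoxd3 and Hoxd4 (35.5 kb), Smad7, an inhibitor of TGF-beta signalling (33.4 kb), and Meis2, a partner of Hox proteins (33.3 kb). At Trim71, H3K9ac covered 99.0% of the interval with MS-275 and 34.8% with DMSO, while H3K18la covered 24.4% and 21.7%. The borders of all these intervals are those of the joined MS-275 peaks, and the widest were picked. A larger H3K9ac share with MS-275 than with DMSO was therefore largely set in advance. Within the same borders, the H3K18la share with MS-275 was slightly larger at HoxB and Trim71 and smaller in the first HoxA interval.

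Promoters with all 3 marks were rich in CG. Of 32851 RefSeq promoters, 5756 had all 3 marks within 1 kb of their start with MS-275, with a median of 19 CG dinucleotides in 300 bases, against 3 in promoters without a mark and 7 over all promoters. Promoters with only H3K9ac and H3K9cr also had a median of 19, so this count did not set the 2 classes apart. The 410 promoters with all 3 marks with MS-275 and none with DMSO had a median of 5, and only 6.10% of them held 15 or more, as did 71.2% of the 4781 promoters with all 3 marks under both treatments. Padi2 and Hoxa9, printed above with 22 and 4 CG dinucleotides, stand on either side of that median.

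Motifs were searched on both strands of these 300 bases. GGGCGG, the core of the Sp1 box, was found in 60.6% of promoters with all 3 marks with MS-275, in 58.3% of those with only H3K9ac and H3K9cr, and in 35.7% of all promoters. It contains a CG and so moves with the CG count. TATAAA, the TATA box letters, was found in 7.87% of promoters with all 3 marks, in 21.6% of those without a mark and in 13.6% of all promoters. CCAAT was found in 36.3% of promoters with all 3 marks and in 37.4% of all promoters. CACGTG, an E-box, was found in 9.49% of promoters with all 3 marks and in 7.15% of all. The cyclic AMP response element TGACGTCA was found in 3.25% of promoters with all 3 marks and in 1.79% of all. It also contains a CG, as does the E-box. Of the promoters printed, Eef2 holds the TATA box letters, the E-box and the cyclic AMP response element, Padi2 the Sp1 and CCAAT boxes, and Hoxa9 the Sp1 box. Pla2g1b, Igfbp5 and the Hnrnpf start hold none of the 5. A match describes letters only and says nothing of a factor.

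RNA levels are given as CPM, counts scaled to library size. They are not divided by transcript length, which was not used here, so levels are compared between treatments and not between genes. The 2 MS-275 libraries held 18855009 and 18803374 counts and the 2 DMSO libraries 19586374 and 18115926. Summed markers of pluripotent cells reached 401 and 402 CPM with MS-275 and 465 and 463 with DMSO, and those of neural progenitors 1500 and 1447 with MS-275 and 1143 and 1151 with DMSO, and no gene of either list was under 1 CPM with MS-275. The pluripotency sum moved against most of its members: 5 of 8 were higher in both MS-275 libraries, and Sox2, Sall4 and Lin28a were lower, Sox2 with 78.1 and 82.7 CPM with MS-275 and 193 and 199 with DMSO. Fibroblast markers stood at 542 and 504 CPM with MS-275 and 26.6 and 28.4 with DMSO, with all 6 above 1 CPM with MS-275. Col1a1 made up 372 and 342 CPM of the MS-275 sums, and Dcn went the other way, with 1.63 and 2.49 CPM with MS-275 and 4.5 and 4.78 with DMSO. Blood markers summed to 11 CPM in each MS-275 library and at most 1.88 with DMSO, with 4 of 6 under 1 CPM with MS-275, and endoderm markers to at most 6.74 CPM, with 4 of 6 under 1 CPM. In bulk RNA, more cells of a type and more RNA per cell cannot be told apart.

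Genes with all 3 marks were mostly expressed. With MS-275, 76.8% and 76.5% of the 5865 genes reached 1 CPM in the 2 libraries, against 70.5% and 70.3% in the DMSO libraries. Among genes with only H3K9ac and H3K9cr, 74.2% reached 1 CPM in each MS-275 library, and among the 19974 without a mark 5.32% and 5.26% did. Of all genes, 36.9% and 36.8% reached it with MS-275. The class with H3K18la and the class without it thus had nearly the same share of expressed genes. Among protein-coding genes with all 3 marks, 90.6% and 90.4% reached 1 CPM with MS-275.

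Genes of high CPM were found with and without an H3K18la peak. The 3 genes with all 3 marks chosen for their high CPM, a value that also grows with transcript length, were Eef2, which encodes the translation elongation factor eEF2, Hsp90ab1, a cytosolic chaperone, and Scd2, a fatty acid desaturase. Eef2 had 5450 and 5428 CPM with MS-275 and 4935 and 4711 with DMSO, a small rise (log2 fold change 0.17, SE 0.0448, edgeR adjusted p = 0.00293). Without DMSO replicate 2 it was 0.13 and no longer called. Hsp90ab1 had 5018 and 5191 CPM with MS-275 and 6013 and 6034 with DMSO, and fell by 0.24 on the log2 scale (edgeR adjusted p = 2.45e-05). Scd2 had 4047 and 3914 CPM with MS-275 and 3014 and 3228 with DMSO, and rose (log2 fold change 0.35, SE 0.0394, edgeR adjusted p = 8.32e-07). Both libraries of each treatment lay on their own side for all 3 genes. Eef1a1, an elongation factor with H3K9ac and H3K9cr but no H3K18la peak, had 8920 and 9221 CPM with MS-275 and 11912 and 11611 with DMSO. It had all 3 marks with DMSO.

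The few genes at the authors' highest fold enrichments were not those that changed most. Peak strength and RNA change were not compared across all genes. The highest H3K9ac fold enrichments with MS-275 stood at Hspa4, a chaperone of the Hsp110 family (43.2), and Eif4a1, a translation initiation helicase (40.9). Hspa4 had 637 CPM in each MS-275 library and 631 and 655 with DMSO, and was not called (edgeR adjusted p = 0.817). Eif4a1 had 837 and 882 CPM with MS-275 and 1379 and 1421 with DMSO, a fall of 1.63-fold (log2 fold change −0.70, SE 0.0437, edgeR adjusted p = 7.28e-10). The highest H3K9cr value, 53.2, was that of the HoxB peak over Hoxb2 and Hoxb3, both called lower (log2 fold change −0.53 and −0.43). The highest H3K18la values stood at Cnot1, the scaffold of the CCR4-NOT deadenylase (12.7), and at Mir22hg, the host of miR-22 (12.4). Neither was called, with 533 and 572 CPM for Cnot1 with MS-275 against 587 and 609 with DMSO, and 5.65 and 5.18 for Mir22hg against 5.18 and 5.29. Both Cnot1 values lay below those with DMSO (edgeR adjusted p = 0.0526), and Cnot1 was called lower without MS-275 replicate 2 (log2 fold change −0.17), with no filter on low counts (−0.13) and with a replicate block (−0.12).

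MS-275 moved genes with all 3 marks in both directions. Of the 5865 genes, 4890 passed the filter on low counts, and edgeR's quasi-likelihood test called 1965 of these higher (40.2%) and 1616 lower (33.0%). Over all 17789 genes tested 31.9% were called higher and 31.4% lower, and over the 16155 tested genes with known ends 33.9% and 32.9%. The share higher stood above that background and the share lower at it. Rises of at least 4-fold numbered 653 (13.4%, against 11.6% of all tested genes with known ends) and falls of at least 4-fold 64 (1.31%, against 1.24%). The median log2 fold change was 0.08, with quartiles of −0.38 and 1.00, beside 0.02 over the tested genes with known ends. Genes with H3K9ac and H3K9cr only had 31.5% higher and 36.3% lower, with a median of −0.04. A gene that passed the filter only through the group in which it was high had to differ, so these shares describe the genes tested and not all members.

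Most genes with all 3 marks with MS-275 (83.8%) had all 3 with DMSO too, and the others had fewer or none. The share of expressed genes differed with the marks held with DMSO. Of the 4913 genes with all 3 marks under both treatments, 83.7% and 83.5% reached 1 CPM in the MS-275 libraries and 79.4% and 79.2% in the DMSO libraries. Of the 425 genes with all 3 marks with MS-275 and none with DMSO, 27.5% and 26.6% did with MS-275 and 12.2% and 11.8% with DMSO. The RNA changes given next cover only genes that passed the filter on low counts. In classes where few genes passed, many may have passed through their MS-275 counts alone, which would fix the direction, so shares and medians are descriptions of tested genes and are not compared between classes. Where all 3 marks were present under both treatments (4383 tested), 36.8% rose and 35.9% fell, and the median log2 fold change was 0.00. Where all 3 marks were present with MS-275 but H3K9ac and H3K9cr only with DMSO (278 genes, 224 tested), 68.3% rose and 9.38% fell, with a median of 1.56. Where all 3 were present with MS-275 and none with DMSO (168 of 425 tested), 69.6% rose and 8.93% fell, with a median of 2.46, and 57.7% rose by at least 4-fold. In the 134 genes with all 3 marks with MS-275 and H3K18la alone with DMSO, 37 of 49 tested rose and 3 fell.

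Genes with H3K9ac and H3K9cr but no H3K18la with MS-275 were filtered in the same way. Where these marks were present with MS-275 and no mark was present with DMSO (1604 genes, 580 tested), 54.3% rose, with a median log2 fold change of 1.27. Where no mark was present under either treatment (19745 genes, 1713 tested), 27.4% rose and 18.5% fell. A larger group was that of 7443 genes with only H3K9ac and H3K9cr with MS-275 and all 3 marks with DMSO: of 6842 tested, 25.8% rose and 42.2% fell, with a median of −0.13. In genes with all 3 marks with MS-275 and none with DMSO, H3K18la came together with the other marks, and their parts cannot be told apart.

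**Figure D4:**
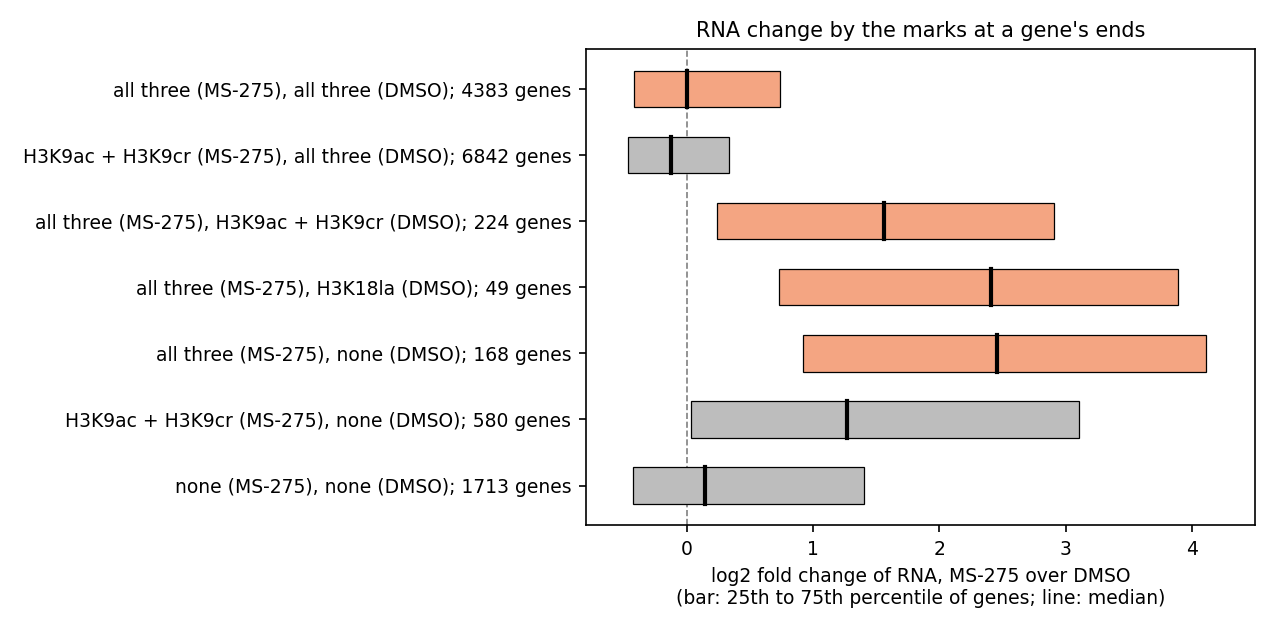
RNA change between MS-275 and DMSO by the marks within 1 kb of a gene's ends under each treatment; bars span the 25th to 75th percentile of tested genes and black lines mark medians, on a log2 scale, with orange bars for all 3 marks with MS-275. The median was 2.46 for genes with all 3 marks with MS-275 and none with DMSO, and 0.00 for genes with all 3 under both, but only 168 of 425 genes passed the count filter in the first class, against 4383 of 4913 in the second, and the filter favours genes that are high with MS-275 in the first.

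Among the largest rises of genes with all 3 marks and a mean of at least 5 CPM, 4 are described here, each of a gene nearly silent with DMSO. Padi2, a protein-arginine deiminase, had 46.7 and 38.9 CPM with MS-275 and 0.105 and 0 with DMSO, a ratio of counts of 785 (95% counting interval 217 to 6491). Its peaks with MS-275 had fold enrichments of 9.55 for H3K9ac, 8.05 for H3K9cr and 3.03 for H3K18la, with no peak of any mark with DMSO.

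Pla2g1b, a secreted phospholipase A2, had all 3 marks under both treatments and rose 163-fold (log2 fold change 7.34, SE 0.313, edgeR adjusted p = 6.92e-11). It had 24.3 and 22.2 CPM with MS-275 and 0.105 and 0.171 with DMSO. Hoxa9, a posterior Hox gene, had 12.1 and 10.6 CPM with MS-275 and 0.157 and 0 with DMSO, a ratio of counts of 139 (95% counting interval 47.3 to 677). It lay under an H3K9ac peak of 26358 bp with MS-275 and had no peak at its ends with DMSO. Calcr, the calcitonin receptor, had 9.66 and 11.6 CPM with MS-275 and 0.0524 and 0.114 with DMSO (ratio of counts 130, 95% counting interval 44.2 to 633), and of the 3 marks lacked H3K18la with DMSO. The treatments did not overlap in any of the 4, but the rule that picked these genes asked for that. The intervals cover counting error only, and the fitted log2 fold change of 2 of these genes rests on which DMSO library is kept: without DMSO replicate 1 and without DMSO replicate 2 it was 12.7 and 8.58 for Padi2, and 10.8 and 6.11 for Hoxa9.

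The 5 largest falls were picked among genes with all 3 marks with MS-275. All 5 had them with DMSO too, as did 83.8% of the genes with all 3 marks with MS-275. Lrrc4, a synaptic adhesion protein also called NGL-2, had 0.396 and 0.747 CPM with MS-275 and 58.1 and 49.1 with DMSO (log2 fold change −6.54, SE 0.177, edgeR adjusted p = 6.23e-14). Prdm13, a transcription factor of the dorsal neural tube, had 0.594 and 0.299 CPM with MS-275 and 12.1 and 10.3 with DMSO. Ntng2, the adhesion protein netrin-G2, had 1.19 and 1.39 CPM with MS-275 and 29.9 and 32.7 with DMSO. RNA of these 3 genes was nearly lost. The H3K9ac, H3K9cr and H3K18la peaks called at their ends with MS-275 were a condition of the choice. At Lrrc4 and Prdm13 each mark had a lower fold enrichment with MS-275. For H3K9ac it was 21.7 with MS-275 and 34.6 with DMSO at Lrrc4, and 9.04 and 15.5 at Prdm13. At Ntng2 H3K9ac and H3K9cr were higher, H3K9ac with 19.2 and 10.2, and H3K18la had 4.39 and 4.57. Over the whole H3K9ac list the median was also lower with MS-275, at 4.73 against 13.8 with DMSO.

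Igfbp5, which binds insulin-like growth factors, fell by 4.19 on the log2 scale (SE 0.0739, edgeR adjusted p = 1.47e-15), with 17.1 and 20.9 CPM with MS-275 and 347 and 346 with DMSO. Shisa6, an AMPA receptor auxiliary protein, fell by 4.07 (SE 0.0747, adjusted p = 1.47e-15 by edgeR), with 18.8 and 20.1 CPM with MS-275 and 317 and 338 with DMSO. In each of the 5 genes both MS-275 libraries lay below both DMSO libraries, as the rule that picked them required. The strongest H3K9ac peak at each of the 5 genes with MS-275 was beyond the upper quartile of the list (1826 bp). Widths ran from 2481 bp at Prdm13 to 7419 bp at Igfbp5 and 9117 bp at Ntng2. Width is usual for the class, since H3K9ac peaks in regions with all 3 marks had a median of 2194 bp.

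**Figure D5:**
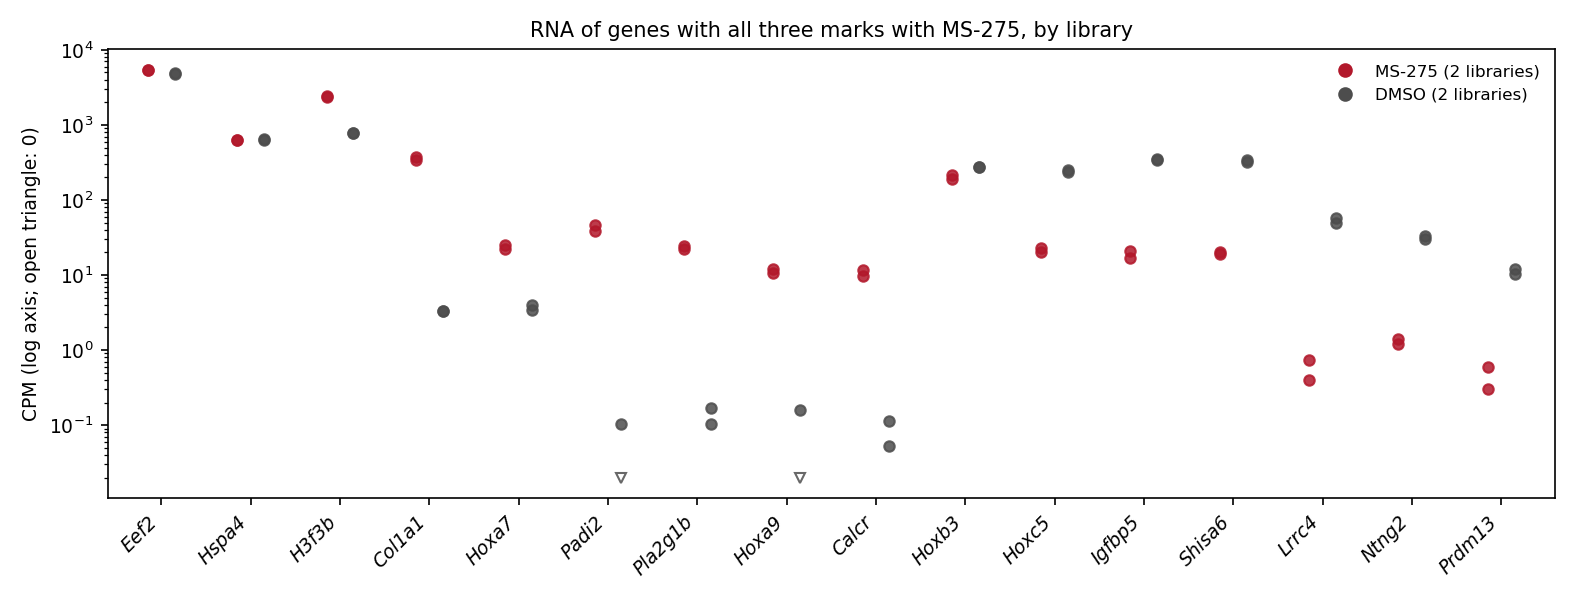
CPM of 16 genes with all 3 marks with MS-275 in each of 2 MS-275 (red, left) and 2 DMSO libraries (grey, right), on a log axis; open triangles stand for 0. Padi2 had 46.7 and 38.9 CPM with MS-275 against 0.105 and 0 with DMSO, and Lrrc4 0.396 and 0.747 against 58.1 and 49.1.

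Hox genes encode factors that pattern the embryo from head to tail, and with MS-275 no other list was covered as fully. The calls in this and the other lists are to be read against 33.9% higher and 32.9% lower among all tested genes with known ends, and marks kept against 39.6%, the share of all genes with all 3 marks with DMSO that had them with MS-275. All 19 Hox genes listed had all 3 marks with MS-275, and 17 of them with DMSO; Hoxa9 had none and Hoxd4 only H3K9ac and H3K9cr with DMSO. Among the same 19, edgeR called 5 higher and 12 lower, with a median log2 fold change of −0.53. Hoxb1, an early target of retinoic acid, had 397 and 363 CPM with MS-275 and 142 and 146 with DMSO (log2 fold change 1.4, SE 0.0753, edgeR adjusted p = 1.31e-10). Hoxa7 had 25.4 and 22.4 CPM with MS-275 and 3.93 and 3.41 with DMSO, 6.49-fold higher. Hoxc5 went the other way, with 21.5 ± 2.04 CPM with MS-275 and 241 ± 8.75 with DMSO (SD, n = 2 each). It fell by 3.49 on the log2 scale (SE 0.0771, edgeR adjusted p = 2.29e-14).

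Neighbours under one wide region had different RNA changes, though the difference between them was not tested. Under the HoxB region, Hoxb5 had 59.9 and 58.8 CPM with MS-275 and 159 and 165 with DMSO, a fall of 2.73-fold, whereas Hoxb6 had 67.5 and 61.9 against 65.0 and 63.4 with DMSO and was not called (edgeR adjusted p = 0.917). Hoxb3 and Hoxb4, Hoxa3 and Hoxa4, and Hoxd3 and Hoxd4 overlap in the annotation, and no source used here says whether counting used strand, so their reads may be shared.

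Other genes of the retinoic acid response were marked as well. Of 12 listed, 9 had all 3 marks with MS-275 and 8 with DMSO; of the 9, 6 rose and 1 fell, and over the whole list 6 rose and 4 fell. Cdx1, a caudal factor that acts on Hox genes, had 43.7 and 41.1 CPM with MS-275 and 5.08 and 5.97 with DMSO, 7.68-fold higher, under an H3K9ac peak of 16064 bp. Crabp2 and Cyp26a1, which bind and break down retinoic acid, were not called, with 1025 and 942 CPM for Crabp2 with MS-275 against 973 and 966 with DMSO. Dhrs3, a retinaldehyde reductase, was the member that fell, with 25.8 and 30.5 CPM with MS-275 and 66.8 and 73.0 with DMSO.

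Pluripotency and neural progenitor genes with all 3 marks were split. Of 10 pluripotency genes with all 3 marks with MS-275, 5 rose and 4 fell, and of the 16 tested in the whole list 11 rose and 4 fell. Utf1, a chromatin protein of pluripotent cells, had 8.52 and 8.21 CPM with MS-275 and 0.419 and 0.341 with DMSO, 21.6-fold higher (log2 fold change 4.43, SE 0.273, edgeR adjusted p = 6.49e-10). Pou5f1, the core factor Oct4, had 77.0 and 81.2 CPM with MS-275 and 40.0 and 38 with DMSO, whereas Sox2, shared with neural progenitors, had 78.1 and 82.7 against 193 and 199. Of 10 neural stem and progenitor genes with all 3 marks, 4 rose and 6 fell, and over the whole list of 19, 6 rose and 12 fell. The Notch target Hes5 had 1.29 and 0.697 CPM with MS-275 and 12.5 and 11.7 with DMSO, and Nes, the intermediate filament nestin, 645 and 587 against 349 and 354.

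Most mesenchymal genes rose, with and without H3K18la. Of 13 fibroblast and mesenchyme genes 10 rose and 2, Dcn and Tagln, fell, with a median log2 fold change of 0.87, against 33.9% higher and 32.9% lower over all tested genes with known ends. With MS-275, 4 of the 13 had all 3 marks and 9 had H3K9ac and H3K9cr only; the 4 all rose, with a median log2 fold change of 3.02. Col1a1, the alpha 1 chain of type I collagen, had 372 and 342 CPM with MS-275 and 3.30 and 3.35 with DMSO. Col1a2 and Pdgfrb had all 3 marks with MS-275 and lacked H3K18la with DMSO, and rose 7.82-fold and 8.42-fold. Fibronectin (Fn1) rose least, with 428 and 434 CPM with MS-275 and 294 and 304 with DMSO. The summed fibroblast markers given above moved with these genes and share Col1a1, Col1a2 and Pdgfrb with them.

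The enzymes that write and erase these marks were themselves marked. Of 14 genes of class I deacetylases and their complexes, 6 had all 3 marks with MS-275 and 13 with DMSO, and the other 8 had H3K9ac and H3K9cr with MS-275. The 6 of 13 that kept them stand near the 39.6% over all genes. Of those 6, edgeR called 1 higher and 4 lower, and over the whole list 2 higher and 9 lower. Ncor1, the corepressor that activates HDAC3, had 238 and 243 CPM with MS-275 and 488 and 493 with DMSO, a fall of 2.03-fold (log2 fold change −1.02, SE 0.0471, edgeR adjusted p = 2.23e-11). Of 10 histone acyltransferases, 5 had all 3 marks with MS-275 and all 10 with DMSO, and 4 of the 5 fell, as did 9 of the whole list, among them Kat5, with 34.1 and 31.6 CPM with MS-275 and 57.9 and 60.4 with DMSO. Ep300 and Crebbp, which encode p300 and CBP, were among the other 5 and both fell, Crebbp by 1.1 on the log2 scale.

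Readers and genes of acyl supply kept the marks in part, beside 39.6% over all genes. Of 12 acyl-lysine readers, 4 had all 3 marks with MS-275 and 8 with DMSO; of the 4, 3 fell, and over the whole list 8 fell and none rose. One that fell was Yeats2, a crotonyl-lysine reader, with 126 and 127 CPM with MS-275 and 156 and 155 with DMSO. Of 16 genes of acyl-CoA and lactate supply, 7 had all 3 marks with MS-275 and 14 with DMSO; of the 7, 2 rose and 2 fell, and over the whole list 7 rose and 3 fell. The lactate transporter Slc16a1 rose, with 160 and 161 CPM with MS-275 and 103 and 105 with DMSO. Its relative Slc16a3 had 114 and 167 CPM with MS-275 and 70.5 and 76.4 with DMSO, and Ldha, which makes lactate and had H3K9ac and H3K9cr only, 175 and 404 with MS-275 against 307 and 305. The 2 MS-275 libraries thus differed from each other at these genes by more than the DMSO libraries did, and Ldha was not called (edgeR adjusted p = 0.766).

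Housekeeping lists mostly kept H3K9ac and H3K9cr, and H3K18la in part. Of 24 cytosolic ribosomal protein genes, 15 had all 3 marks with MS-275 and 23 with DMSO, and 12 of the 15 fell slightly, with a median log2 fold change of −0.18; none rose. Of 15 genes of mitosis and DNA replication, 3 had all 3 marks with MS-275 and 13 with DMSO. Those 3 were Ccnb1, Mcm7 and Top2a: cyclin B1 (Ccnb1) had 182 and 175 CPM with MS-275 against 256 and 260 with DMSO, and the topoisomerase Top2a 2200 and 2248 against 1504 and 1581. Over all genes, 39.6% of those with all 3 marks with DMSO had them with MS-275, so 15 of 23 and 3 of 13 stood on either side of that share.

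Histone genes mostly kept the marks, with 11 of 14 having all 3 with MS-275 and 14 with DMSO; the list includes the linker histone Hist1h1c, one of the 3 that lacked H3K18la with MS-275. Many histone genes are near-identical copies, so counts of single members are uncertain. H3f3b, one of the genes for the variant H3.3, had 2381 and 2453 CPM with MS-275 and 787 and 780 with DMSO (log2 fold change 1.62, SE 0.0518, edgeR adjusted p = 3.66e-13), while H3f3a, which encodes the same protein, had 508 and 496 against 674 and 683 and fell. Of 6 CDK inhibitor and p53 target genes with all 3 marks with MS-275, 4 rose and 1 fell, and over the whole list of 12, 9 rose and 2 fell. Ccng1, cyclin G1, had 124 and 111 CPM with MS-275 and 38.3 and 39.3 with DMSO, and Cdkn1b, the inhibitor p27, 76.4 and 80.9 against 166 and 171. Cdkn1a, the inhibitor p21, rose 4.26-fold with H3K9ac and H3K9cr but no H3K18la peak at its ends.

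Lists of other cell types differed in how many members had all 3 marks, beside 15.3% of all genes with MS-275. Their members are all protein-coding, and of protein-coding genes 4758 of 21264 had all 3 marks with MS-275. Of 16 neuron genes 6 had all 3 with MS-275 and 9 with DMSO, and of the 6, 3 rose and 2 fell. Of 10 endoderm genes 1, Gata6, had all 3 with MS-275 and 4 with DMSO, and 6 of the 10 had H3K9ac and H3K9cr with MS-275. Of 10 blood genes none had all 3 with MS-275 and 1 with DMSO.

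Some genes of high CPM had no mark near an end. The named genes of highest CPM without a mark were Hnrnpf, a splicing factor (769 and 770 CPM with MS-275, 936 and 954 with DMSO), Eno1b and Hmga1b, of which the last 2 share sequence with Eno1 and Hmga1, so that their counts are uncertain. Hnrnpf has 4 promoters in RefSeq, of which 2 had all 3 marks with MS-275 and 1 had H3K9ac and H3K9cr; the start printed above is the fourth. Classes by gene ends miss some marked starts. Of 980 unmarked genes with at least 1 CPM in both MS-275 libraries, 648 have a listed promoter. Of those 648, 52.2% had a mark at a listed promoter. Among the silent unmarked genes, 84 of 6672 with a promoter did.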

How the data were processed

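Peak lists were deposited 1 per ChIP library; per the file headers they hold MACS2 columns: position, pileup signal, −log10 p-values and −log10 q-values, and fold enrichment, a ratio over local background computed by the authors. Per the submitters' processing notes, GRCm38, Salmon 1.1.0, DESeq2 1.26.0, MACS2 2.2.7.1 and Bowtie2 2.4.1 were used; caller settings and the control are not given in the sources used here. Peak lists give no read depth, so ChIP depth is unknown here. Input and ATAC data were not used here. The authors' RNA table, as deposited, holds Salmon estimated counts (expected counts), of which 19.2% to 25.8% per library were not whole; they were rounded. From these, CPM with TMM factors and edgeR 4.0.16 quasi-likelihood tests (R 4.3.3) were computed over all 10 RNA libraries in 5 groups, with filterByExpr, which kept 17789 genes, and a Benjamini-Hochberg adjusted p-value under 0.05; DESeq2 1.42.0 was an alternative. The test was tested on simulated data first.

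Gene ends came from RefSeq on GRCm38.p6 for 38273 genes matched by symbol, 570 of them by an older symbol; peaks within 1 kb of either end counted. Genes were named by rule: the 3 of highest CPM per mark class and those at the strongest and widest peaks. Up to 2 called members of each list at 1 CPM or more were named too. So were the 5 largest called rises and falls at 5 CPM or more. These were sought among genes with all 3 marks with MS-275 and no overlap between the treatments. Other listed genes that the text names were chosen after their values were seen. Some of the genes so named are not reported here. The members and lists were chosen with earlier results of these data known. Counts of 0 were set against a floor of 3 counts, and counting intervals are at 95%. Deviations of same-numbered MS-275 and DMSO libraries from their group means had a correlation of 0.0853 across genes. With 2 libraries a group, both pairs give this same value. It was low, so the numbers were not taken to pair cultures.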

Additional observations from a re-analysis of the deposited data

How the results depend on the processing

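Counts of marked genes and regions moved most with the peak rules. With peaks of −log10 q of at least 5, 3221 genes had all 3 marks (1068 called higher, 905 lower, 77.2% at 1 CPM or more), regions numbered 8376, and the shares overlapping both other marks were 14.1% for H3K9ac, 16.6% for H3K9cr and 81.7% for H3K18la. With lists of equal length these shares were 38.6%, 39.0% and 62.2%, and 79.6% of genes reached 1 CPM. Asking for overlap of 50% of the peak gave 1.93%, 3.34% and 72.0%. With a peak over the gene end itself, 1178 genes had all 3 marks (401 higher, 301 lower, 72.4% at 1 CPM); within 5 kb there were 9090 (68.3%), and around the transcription start only 3834 (85%). The expressed share was 90.6% among protein-coding genes, an alternative chosen after seeing the data, 77.3% with plain library totals, 87.2% at 0.1 CPM and 58.6% at 10 CPM. Leaving out 1 library gave 4907 to 5100 genes called higher and 4974 to 5071 lower over all genes, 1764 to 1810 higher and 1442 to 1499 lower among genes with all 3 marks, and expressed shares of 76.5% to 76.8%. DESeq2 called 1821 and 1413 of these genes. With the replicate block the counts were 5607 and 5575 over all genes and 1954 and 1615 with all 3 marks. Of 599 refits of 75 named genes, 580 kept the call or its absence (7 of these, in Eno1b, Hspa4 and Mir22hg, none called, changed sign), 16 lost the call (5 genes, among them Eef2, Hspa8, Ciita and Senp7), 3 gained it (Cnot1), and no called gene reversed. ChIP had 1 library per mark and condition and unknown depth, so shares of peaks carry no replicate error.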
